A study of Mus musculus with 6 samples.

Results

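The replication-dependent histone genes and the testis histone genes that lie among them were followed in promoter arrays of Rybp binding in mouse embryonic stem (ES) cells. The members were the genes whose symbol in the annotation of the Dnmt1-KO scanner files starts with Hist1h, Hist2h, Hist3h or Hist4h. They came to 62 transcripts of 17601 on the arrays, and 60 of the 62 were given their present symbols (H1, H2ac, H2bc, H3c and H4c) through RefSeq. They were chosen by symbol, and the set itself was selected on measured values, since the high WT level of H2bc1 was known, so levels and differences are given as descriptions, with no test. Rybp was measured by chromatin immunoprecipitation on 2-colour promoter arrays in 3 genotypes: wild-type (WT) cells, cells without Eed (Eed-KO) and cells without Dnmt1 (Dnmt1-KO). Each genotype has 2 arrays of different design, and each promoter lies on 1 of them. The 6 arrays hold no replicates, so no p-value is given, and precision is limited by their number. Per the labels, all cells were grown on irradiated mouse embryonic fibroblast feeders or on gelatin, with no statement of which culture had feeders, and no line, clone or passage is given.

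Replication-dependent histone genes encode the H1, H2A, H2B, H3 and H4 proteins that package newly made DNA. They have no introns, stand close together in clusters of which Hist1 is the largest, and are transcribed mainly in S phase into messages that end in a stem-loop in place of a poly(A) tail. H2bc1, H2ac1 and H1f6 encode the testis forms of H2B, H2A and H1, which enter chromatin during spermatogenesis, and the first pair is also known from oocytes. Rybp belongs to the variant forms of PRC1, the Polycomb complex that puts ubiquitin on histone H2A. PRC2, the complex that methylates lysine 27 of H3, cannot work without Eed, and Dnmt1 copies DNA methylation after replication.

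The promoters that the results turn on are shown first, as the 250 bases before the start in RefSeq (GRCm38.p6), 5′ to 3′ on the strand of the gene. Promoter sequences matched 55 of the 62 members. H2bc1 (chr13:23934157-23934406, minus strand) had the highest Rybp level of all members. Its start lies 280 bases from that of H2ac1, which is transcribed the other way, so these letters lie wholly between the starts of the pair and 220 of them are also among the 250 bases before H2ac1. H2bc14 (chr13:21721794-21722043, plus strand) was the bound replication-dependent gene whose window covers its own start. H1f6 (chr13:23695561-23695810, plus strand) is the third testis gene and was not bound. H3c8 (chr13:23535168-23535417, plus strand) and H4c11 (chr13:21734784-21735033, plus strand) had among the largest differences in Dnmt1-KO and in Eed-KO. The windows of H1f6 (23 to 751 bp from the start) and H4c11 (-1187 to -428 bp) have no probe in the printed bases. Capitals mark 5 motifs on either strand: TATAAA (the TATA box), CCAAT (the CCAAT box), ATTTGCAT (the octamer known from H2B promoters), GCGGGAA (an E2F-type site) and CACGTG (an E-box).
H2bc1: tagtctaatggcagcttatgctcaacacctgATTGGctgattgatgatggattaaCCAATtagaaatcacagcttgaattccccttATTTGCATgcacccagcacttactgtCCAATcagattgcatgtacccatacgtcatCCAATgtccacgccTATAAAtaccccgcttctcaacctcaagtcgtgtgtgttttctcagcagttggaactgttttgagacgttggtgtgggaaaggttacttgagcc
H2bc14: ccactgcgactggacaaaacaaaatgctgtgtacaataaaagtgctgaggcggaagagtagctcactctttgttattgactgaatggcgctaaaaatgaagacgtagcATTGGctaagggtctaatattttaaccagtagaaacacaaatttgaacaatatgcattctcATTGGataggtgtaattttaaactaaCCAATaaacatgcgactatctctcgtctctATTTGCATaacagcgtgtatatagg
H1f6: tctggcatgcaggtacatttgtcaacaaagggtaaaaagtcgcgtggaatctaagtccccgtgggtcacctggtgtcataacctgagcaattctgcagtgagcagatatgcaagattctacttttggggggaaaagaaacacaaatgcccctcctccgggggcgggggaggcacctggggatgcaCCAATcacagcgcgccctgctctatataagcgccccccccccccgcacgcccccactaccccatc
H3c8: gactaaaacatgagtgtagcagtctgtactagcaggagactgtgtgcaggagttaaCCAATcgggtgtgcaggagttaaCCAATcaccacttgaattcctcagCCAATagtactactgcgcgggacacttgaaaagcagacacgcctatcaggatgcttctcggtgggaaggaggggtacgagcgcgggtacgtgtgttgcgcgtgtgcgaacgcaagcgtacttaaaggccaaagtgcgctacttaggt
H4c11: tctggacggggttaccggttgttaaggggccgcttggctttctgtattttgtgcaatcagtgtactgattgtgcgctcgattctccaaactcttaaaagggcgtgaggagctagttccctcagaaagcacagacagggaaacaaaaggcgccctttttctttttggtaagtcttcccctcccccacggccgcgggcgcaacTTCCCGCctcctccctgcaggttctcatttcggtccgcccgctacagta

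Counted from the RefSeq start, the H2bc1 sequence holds TATAAA at -94 to -89, ATTTGCAT at -164 to -157 and 4 copies of CCAAT. H2bc14 has ATTTGCAT at -25 to -18 and 3 copies of CCAAT. Among the 56 promoter sequences of members, CCAAT was in 46 (82.1%, against 33.8% of 32851 promoters of the same length), TATAAA in 28 (50%, against 12.4%), ATTTGCAT in 14 (25%, against 1.6%) and GCGGGAA in 5 (8.93%, against 3.82%). Of the 14 sequences with ATTTGCAT, 7 were of H2B genes and the rest were of H2A genes. Genes that share a divergent promoter, such as H2bc1 and H2ac1, can hold the same copy, so the motif counts are not independent. The 5 with GCGGGAA were all H4 genes (H4c1, H4c4, H4c6, H4c11 and H4c12). CACGTG was in no member sequence and in 6.02% of all. The median WT level, in log2 of precipitated over input signal as defined next, was 0.40 for the 10 windows of genes with ATTTGCAT and 0.47 for the 33 without it. It was 0.42 for the 33 with CCAAT and 0.54 for the 10 without it, 0.43 for the 20 with TATAAA and 0.47 for the 23 without it, and 0.58 for the 5 with GCGGGAA and 0.41 for the 38 without it.

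The level of a window is the mean log2 of precipitated over input signal over a run of 6 neighbouring probes spanning at most 3 kb, each array centred on its median, so that a level of 1 is 2-fold over the array's middle. Values carry the SD over the 6 probes, which is probe scatter on 1 array and no replicate error. Of the 62 members, 50 have such a window, made of 291 distinct probes, of which 9 serve in 2 windows. The other 12 were read from at least 3 probes within 1000 bp of their start. A level of 1 or more counted as bound. In WT, 4 of the 50 members were bound, against 5.15% of all 16329 promoters, and the median member level was 0.44 against 0.27 over all promoters. The bound members were H2bc1 (1.91 ± 0.36), H2ac1 (1.71 ± 0.62), H2ac10 (1.21 ± 0.44) and H2bc14 (1.16 ± 0.28). Just under the threshold came H3c14 (0.96 ± 0.34), an H3 gene of the Hist2 cluster, and H4c11 (0.93 ± 0.27), an H4 gene of Hist1. At the low end stood H2bc3 (0.07 ± 0.40), H3c1 (0.05 ± 0.21) and H3c7 (-0.13 ± 0.12). H3c7 was the single member with a WT window level under 0.

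**Figure D1:**
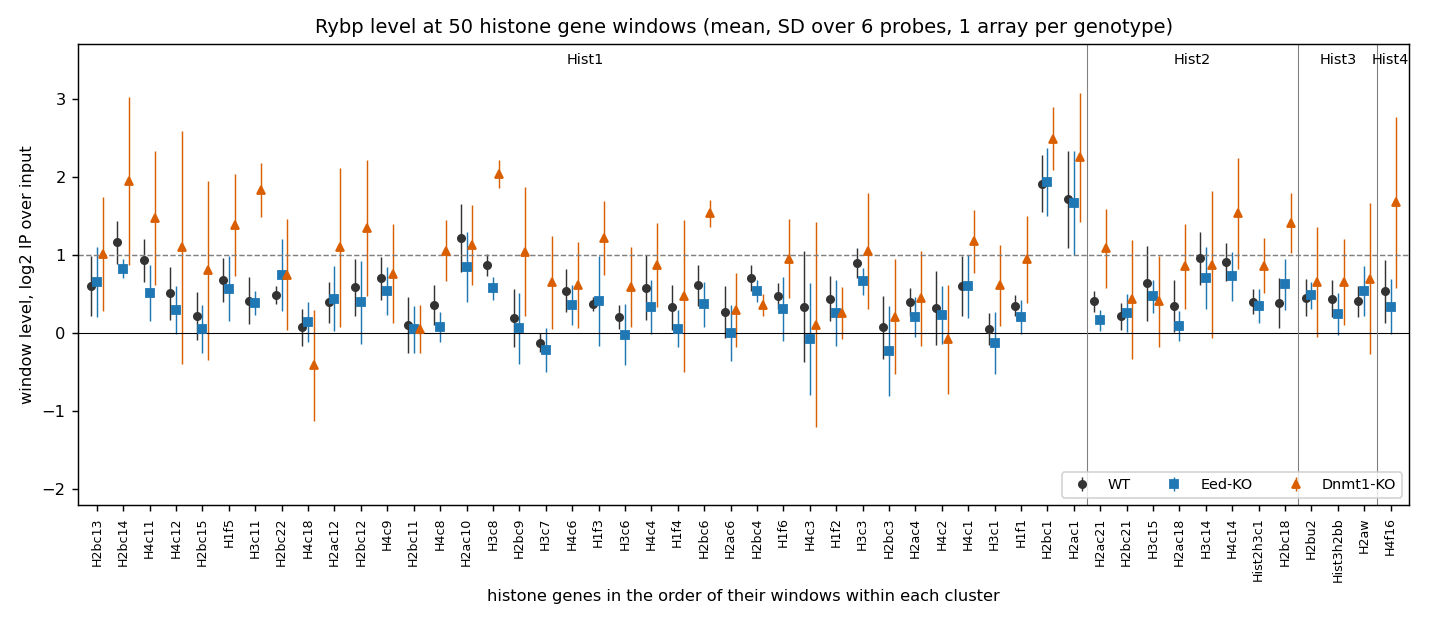
Window level (log2 precipitated over input) of the 50 histone gene windows in WT, Eed-KO and Dnmt1-KO, in the order of their positions within the 4 clusters; symbols are means and bars the SD over 6 probes of 1 array, and the dashed line is the bound level of 1. H2bc1 and H2ac1, at the end of Hist1, stand above the other members in all 3 genotypes, at 1.91 and 1.71 in WT.

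The testis pair H2bc1 and H2ac1 stood apart from the rest of the family. H2bc1 measured 1.91 in WT, 1.94 in Eed-KO and 2.49 in Dnmt1-KO, which put it at rank 7, 24 and 530 of the 16329 promoters. H2ac1 measured 1.71, 1.67 and 2.25, at rank 23, 86 and 935. Both levels lay above 1 in every genotype, and no other member was bound in Eed-KO, which makes 2 of 50, against 5.76% of all promoters. The windows lie on chromosome 13 at 23940859 to 23941947 (H2bc1) and 23941651 to 23942604 (H2ac1) in the coordinates of the Dnmt1-KO scanner files, which name no genome build, and they share 3 probes. Those 3 probes, all annotated as divergent promoter, read 2.05, 2.15 and 2.40 in WT, 2.28, 1.98 and 2.37 in Eed-KO and 3.03, 2.62 and 2.64 in Dnmt1-KO. The first covers bases -80 to -30 of the H2bc1 sequence printed above and the second bases -213 to -154, which include ATTTGCAT. Away from the shared promoter the WT level declined on each side. Past the H2bc1 start it was 1.85 at 453 bp, 1.07 at 924 bp and 0.33 at 1563 bp. Past the H2ac1 start it was 1.73 at 132 bp, 0.87 at 650 bp and 0.39 at 2047 bp. At these same probes Eed-KO read 1.82, 0.93 and 0.57 on the H2bc1 side and 1.61, 0.78 and 0.45 on the H2ac1 side. Between 1955 and 2759 bp past the H2bc1 start Eed-KO read above WT, with 0.73 against 0.12 at 2647 bp. At 2083 bp the levels were alike, at 0.09 and 0.08. H1f6, the testis H1 gene, lies apart from the pair, in the stretch of Hist1 before it, and measured 0.47 ± 0.16 in WT, 0.31 ± 0.41 in Eed-KO and 0.95 ± 0.51 in Dnmt1-KO. It was below the bound level in each genotype.

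**Figure D2:**
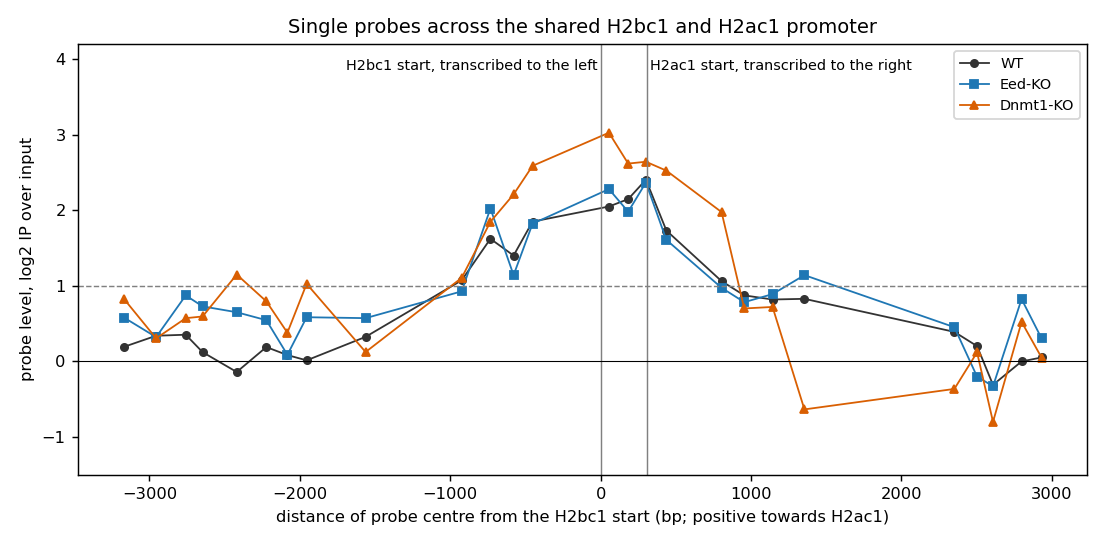
Level of single probes (log2 precipitated over input) against distance in bp from the H2bc1 start, positive towards H2ac1, for WT, Eed-KO and Dnmt1-KO; vertical lines mark the starts and the dashed line the level of 1. All 3 genotypes peak over the shared promoter, where the 3 shared probes read 2.05, 2.15 and 2.40 in WT. There WT and Eed-KO run close together, and from 1955 to 2759 bp past the H2bc1 start Eed-KO reads above WT.

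The remaining bound members were a replication-dependent H2A gene and H2B gene of Hist1. H2bc14 read 1.07, 1.50, 1.42, 1.23, 0.76 and 0.99 over its 6 probes in WT, with the highest pair just before the start. Over all probes within 1000 bp of the start it measured 1.07 in WT, 0.80 in Eed-KO and 1.82 in Dnmt1-KO, so the call in WT holds with either reading. The H2ac10 window is centred at -1913 bp from that gene's start, and the start nearest to it is that of the H4 gene H4c8, at a mean distance of 948 bp. Within 1000 bp of its own start H2ac10 measured -0.13 ± 1.59 in WT, 0.26 ± 0.28 in Eed-KO and 1.31 ± 0.59 in Dnmt1-KO over 7 probes. The WT value rests on 1 probe at -3.65. Without it the 6 others averaged 0.45 in WT, still under the bound level. Of the 50 windows, 8 lie nearer on average to the start of another gene, and 36 are centred within 1000 bp of the member's own start. Read only within 1000 bp of their starts, 58 members had a value, 4 were bound in WT (H2ac1, H2bc1, H2bc14 and H3c14) and 2 in Eed-KO (H2ac1 and H2bc1). None of the 12 members without a window was bound in WT or Eed-KO by this reading, with WT levels of 0.22 to 0.85.

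By histone class, the WT medians were close to each other. They were 0.41 over 6 H1 windows, 0.40 over 8 H2A windows, 0.45 over 15 H2B windows, 0.42 over 9 H3 windows and 0.54 over 12 H4 windows. The highest WT level of each class was H1f5 at 0.68 ± 0.28 for H1, H2ac1 for H2A, H2bc1 for H2B, H3c14 for H3 and H4c11 for H4. By cluster, the medians were 0.46 over 38 Hist1 windows, 0.40 over 8 Hist2 windows and 0.44 over 3 Hist3 windows, and the 1 Hist4 gene, H4f16, measured 0.53 ± 0.40. On chromosome 13 the Hist1 windows fall into 4 stretches more than 100 kb apart, with 9, 4, 23 and 2 windows. Their WT medians were 0.51, 0.49, 0.37 and 1.81, and the last is H2bc1 and H2ac1 alone. The differences between the first 3 stretches were smaller than the spread of members within each, which ran from -0.13 to 1.21 in the third.

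In WT and Eed-KO the other histone genes had their highest median signal 500 to 1000 bp after the start, and in Dnmt1-KO in the first 500 bp. Leaving out H2bc1 and H2ac1, the median WT level of the probes nearest to a member start was 0.18 over 104 probes in the 500 bp before it, 0.44 over 50 probes in the first 500 bp after it and 0.64 over 120 probes from 500 to 1000 bp after it. Over all genes the same medians were 0.16, 0.26 and 0.16. In Eed-KO the members' medians were 0.08, 0.26 and 0.55. In Dnmt1-KO they were 0.88, 1.25 and 0.66, against 0.63, 0.88 and 0.39 over all genes.

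**Figure D3:**
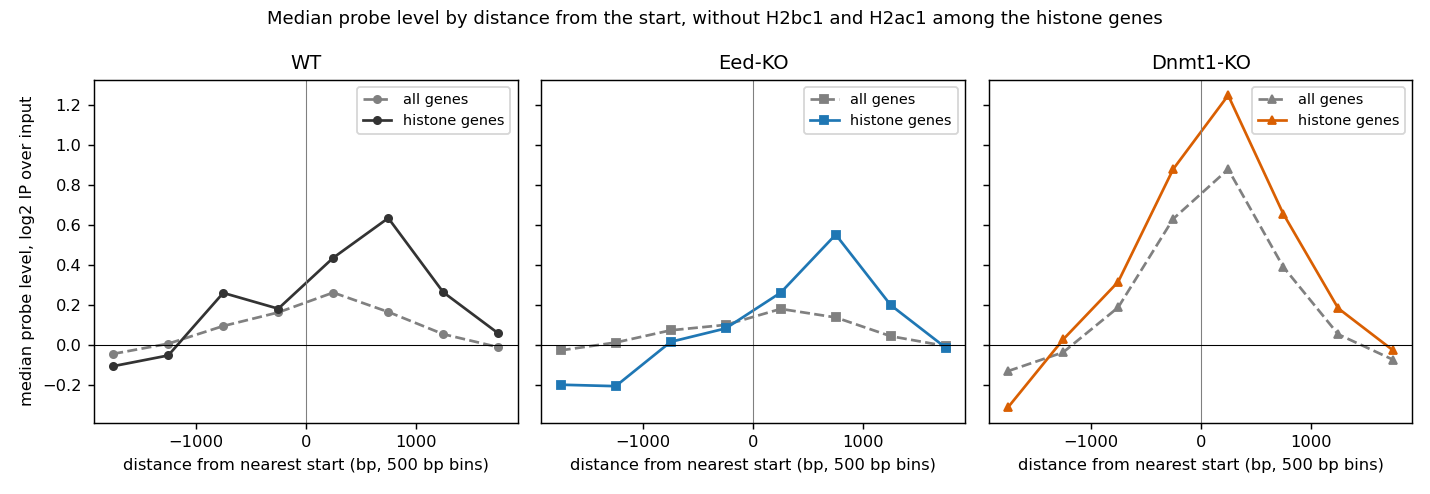
Median probe level (log2 precipitated over input) in 500 bp bins of distance from the nearest start, for histone genes without H2bc1 and H2ac1 (solid) and for all genes (dashed grey), 1 panel per genotype. The histone line peaks at 500 to 1000 bp after the start in WT (0.64) and Eed-KO (0.55), and in the first 500 bp in Dnmt1-KO (1.25).

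Gene by gene, 51 members have probes on both sides. The level was higher at 500 to 1000 bp after the start than in the 500 bp before it in 42 of the 51 in WT, against 50.5% of 15211 genes, and in 41 of the 51 in Eed-KO, against 53.9%. In Dnmt1-KO it was so in 21 of the 51, against 40.1%. The median level after the start was 0.65 and before it 0.24 in WT. H4c8, for example, read 1.29 after and 0.29 before its start, and H3c3 read 0.96 after and 0.13 before. The H4c8 value after the start comes from probes that also serve in the H2ac10 window. H2bc1, H2ac1, H2bc14 and H4c11 were among those that ran the other way in WT, with H4c11 at 0.44 after and 1.03 before. Genes that share a divergent promoter share the probes before the start, so the 51 are not independent of each other. Of the 140 distinct probes 500 to 1000 bp past a member start, 7 also lie within 500 bp before another member's start, and the other 133 had a mean WT level of 0.68. The probes 500 to 1000 bp after the start held 39.4% G and C and those before it 37.5%. With the trend on probe GC content removed, the counts were 43, 40 and 17 of 51 in WT, Eed-KO and Dnmt1-KO, against 56.2%, 57.4% and 47.7% of all genes. With normexp background correction they were 36, 35 and 21, against 48.8%, 50.5% and 38.5%.

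**Figure D4:**
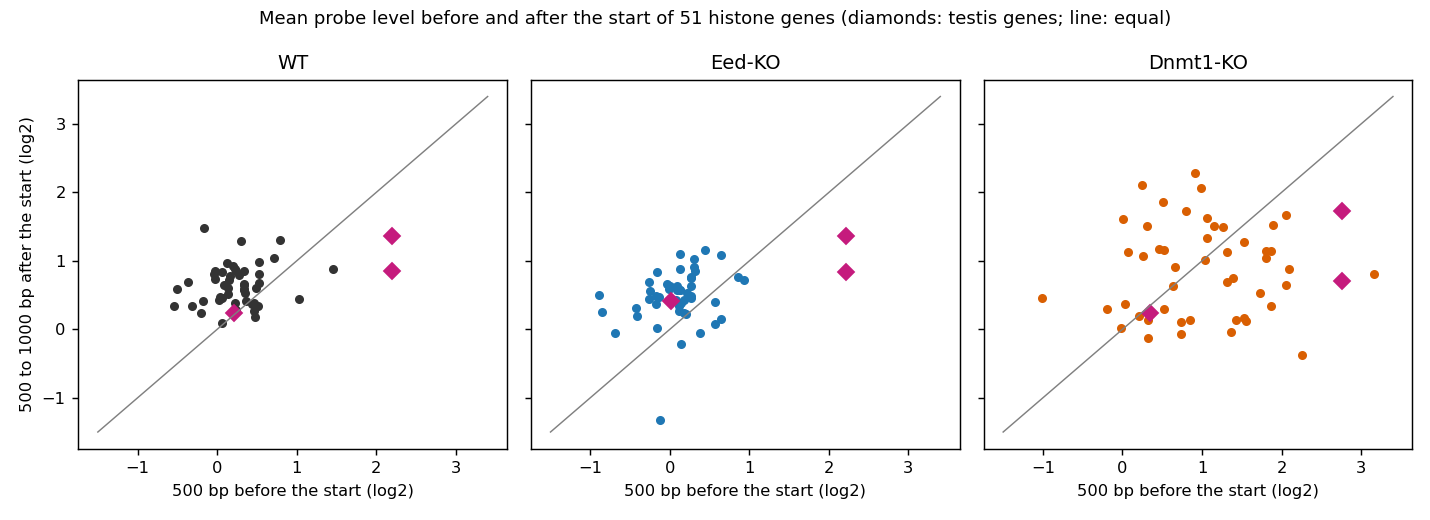
Mean probe level (log2 precipitated over input) at 500 to 1000 bp after the start against that in the 500 bp before it, for 51 histone genes in WT, Eed-KO and Dnmt1-KO; diamonds are H2bc1, H2ac1 and H1f6 and the line marks equal levels. In WT 42 points lie above the line and in Dnmt1-KO 21.

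Without Eed, most histone windows measured slightly lower. A difference of at least 1 at a promoter bound in either genotype was called higher or lower. No member was called either way, against 0.088% higher and 0.0% lower over the 1136 promoters bound in WT or Eed-KO. The median difference of the members was -0.17, against -0.04 over all promoters, and 40 of 50 were below WT, against 59.3%. With the arrays of a design set to 1 spread, 44 of 50 were below WT, against 64.4%. Read probe by probe, 10 members were below WT on all 6 probes, against 8.05% of all promoters, and 2 were above on all 6, against 3.79%. The class medians ran from -0.13 for H2B to -0.22 for H2A, and all 9 H3 windows and 11 of 12 H4 windows were below WT. In the third stretch of Hist1, 22 of 23 windows were below WT. The lowest differences were at H4c3 (-0.42 ± 0.49, SE over 6 probes), H4c11 (-0.41 ± 0.10) and H2ac10 (-0.37 ± 0.10). The value for H4c3 rests on 1 probe, which read 1.48 in WT and -1.32 in Eed-KO. H4c11 was lower on every probe, at 0.99, 1.27, 0.93, 0.91, 0.44 and 1.03 in WT and 0.93, 0.91, 0.21, 0.22, 0.18 and 0.65 in Eed-KO. The highest differences were at H2bc22 (0.26 ± 0.16), H2bc18 (0.24 ± 0.06) and H2aw (0.13 ± 0.09). Within 1000 bp of their starts these genes differed by 0.15, 0.24 and -0.02. The H2bc22 window is centred 2500 bp past its start. H2bc1 and H2ac1 differed from WT by 0.02 ± 0.10 and -0.05 ± 0.06. With the arrays set to 1 spread they differed by -0.23 and -0.29, beside a members' median of -0.29. H2bc14 and H2ac10, bound in WT, stood at 0.82 and 0.84 in Eed-KO and so passed under the bound level. Over all promoters, 76.7% of those bound in WT kept a level of at least 1 in Eed-KO. The SE covers probe scatter on these arrays, and a shift of this size between cultures or hybridisations cannot be told apart from one between genotypes.

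**Figure D5:**
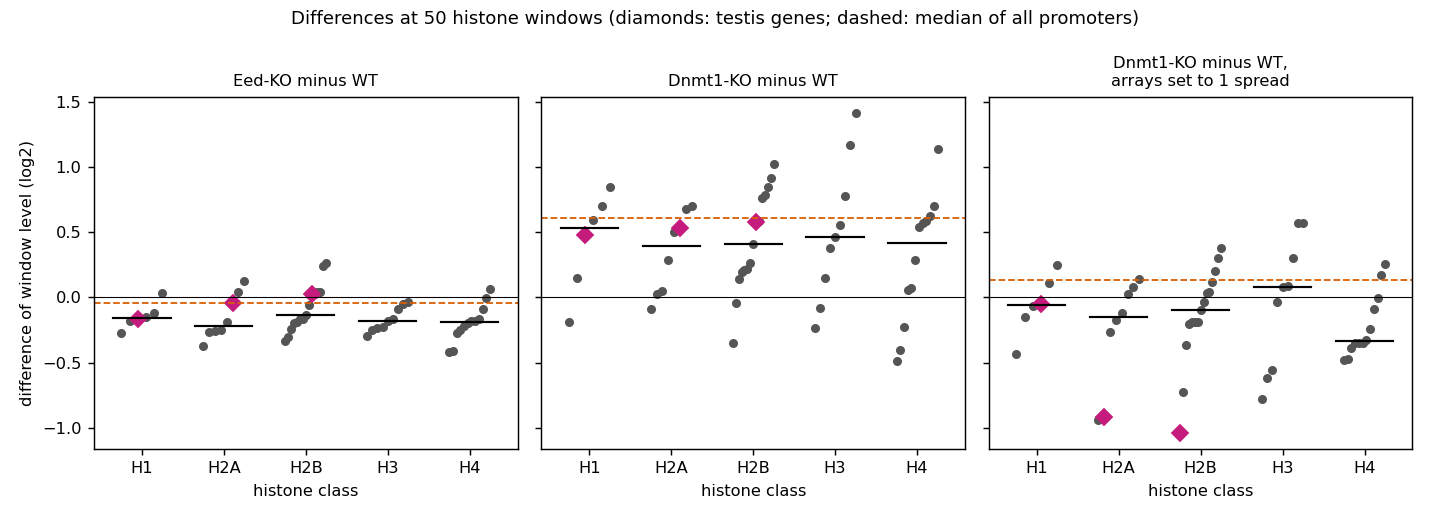
Difference of window level (log2) from WT for the 50 histone windows by class, in Eed-KO, in Dnmt1-KO and in Dnmt1-KO with the arrays of a design set to 1 spread; diamonds are the testis genes, bars the class medians and the dashed line the median of all promoters. In Eed-KO every class median is below 0, and in Dnmt1-KO H2bc1 and H2ac1 turn from above 0 to below it with the arrays set to 1 spread.

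The Dnmt1-KO comparison uses the same WT arrays. The Dnmt1-KO arrays were read on another scanner model and with another extraction version than those of WT and Eed-KO, and their probe log ratios had SDs of 0.957 and 0.912 against 0.413 to 0.468, so genotype and scan cannot be told apart. In levels centred on each array's median, 22 of 50 members were bound, against 46.1% of all promoters, and the median level was 0.87 against 0.92. In the authors' value table, used without that centring, 11 were bound, against 28.1%, and with the GC trend removed 25 were, against 30.4%, with a median level of 1.00 against 0.65. Of the 50, 41 were above WT, against 83.9%. The 9 below WT became 21 with the authors' value table, against 30.8%, 15 with normexp background correction, against 16.6%, and 16 over all probes of a gene, against 42.4%. In the centred levels members stood lower among all promoters than in WT, with a median percentile of 47.7 against 68.6. Of the 22 bound in either genotype, 4 were called higher than WT and none lower, against 53.9% and 0.0398% over 7546 promoters. The 4 were H3c11 (1.42 ± 0.09), H3c8 (1.17 ± 0.10), H4f16 (1.14 ± 0.32) and H2bc18 (1.03 ± 0.18), all higher on each of 6 probes. None of these 4 was bound in WT, so they entered the count through Dnmt1-KO, where they are high. All 22 were bound in Dnmt1-KO, and the windows were chosen on a mean that includes it. The calls are therefore no support for a rise. Within 1000 bp of the start the 4 differences were 1.25, 0.77, 0.56 and 1.03. The H4f16 window lies 747 to 1476 bp past its start. In all, 13 of the 50 members were higher on each of 6 probes, against 43.4% of all promoters. H3c8 read 0.78, 1.08, 0.85, 0.83, 0.70 and 0.99 in WT and 2.05, 2.09, 1.95, 2.35, 2.00 and 1.80 in Dnmt1-KO. The probes of H3c11 ran from 0.00 to 0.85 in WT and from 1.50 to 2.24 in Dnmt1-KO. How many promoters have probe ranges as far apart was not counted. The highest Dnmt1-KO levels were at H2bc1 (2.49), H2ac1 (2.25), H3c8 (2.04), H2bc14 (1.94) and H3c11 (1.83). The lowest were at H4c18 (-0.41), H4c2 (-0.08) and H2bc11 (0.06). H4c18 (-0.48 ± 0.33), H4c2 (-0.40 ± 0.31) and H2bc4 (-0.35 ± 0.11) had the lowest differences. The H4c18 window is centred 2305 bp past its start, and the gene has too few probes within 1000 bp for a reading there.

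The direction of the Dnmt1-KO difference turns with the scaling. In the same windows with the arrays of each design set to 1 spread, the median member difference was -0.11 instead of 0.47, against 0.13 instead of 0.61 over all promoters, and 32 of 50 members were below WT instead of 9, against 34.6% instead of 16.1%. H2bc1 then differed by -1.04 instead of 0.58 and H2ac1 by -0.92 instead of 0.54. H3c11, H3c8, H4f16 and H2bc18 stayed above WT, at 0.57, 0.08, 0.26 and 0.31. In these windows the members' median lay below that of all promoters with either scaling. It lay above it with the GC trend removed (0.48 against 0.42), within 1000 bp of the start (0.47 against 0.41) and over all probes of a gene (0.11 against 0.07). Taken channel by channel, the members' median input signal in Dnmt1-KO differed from WT by -0.63 on the log2 scale, each array centred, whereas that of all promoters differed by 1.22. The precipitated channel differed by -0.16 and 1.91. H2bc1 differed by 2.02 and 2.60 in input and precipitated DNA. The part of input signal in the difference was not tested.

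Member windows held fewer CpG sites than the windows of all promoters, with a median of 1.63 per 100 probe bases against 2.58. In the 250 bases before the start the order was reversed, with a median count of 9 CpG over member sequences against 6 over all. As a description across genes, which share arrays and base composition, Pearson's r between CpG content and WT level was 0.24 over the 50 members, 0.10 over the 48 without H2bc1 and H2ac1, and 0.45 over all promoters. The windows of H2bc1 and H2ac1 held 3.11 and 2.65 CpG per 100 bases. The 250 bases before the H2bc1 start held 5 CpG.

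Genes related to the members by function were read in the same way, beside the 5.15% of all promoters bound in WT. Among 14 windows of replication-independent histone genes, none was bound, and H2aj (0.75 ± 0.30), Macroh2a2 (0.68 ± 0.33) and Macroh2a1 (0.64 ± 0.45) were highest and H2al2a (-0.04 ± 0.22) lowest. The 5 genes of sperm packaging proteins, the protamines and transition proteins that replace histones, ran from -0.14 ± 0.30 (Prm2) to 0.13 ± 0.07 (Tnp2), with Tnp1 at 0.06 ± 0.21 and Prm1 at 0.00 ± 0.16. Their median of 0.00 lay below that of the members. Of 18 genes for histone gene transcription and mRNA processing none was bound in WT, and Lsm11, a part of the U7 particle that trims histone messages, was highest at 0.70 ± 0.34 in WT and 1.03 in Eed-KO. Eri1 (0.48 ± 0.23) and Yy1 (0.45 ± 0.28) came next, and Mif4gd (0.06 ± 0.30) was lowest. Of 17 histone chaperone genes none was bound, with Atrx (0.52 ± 0.16), Ssrp1 (0.50 ± 0.29) and Ubn1 (0.47 ± 0.41) highest and Tonsl (0.02 ± 0.42) lowest. Of the 36 non-histone genes between the members, Hfe (1.06 ± 0.57) was bound in WT, followed by Btn2a2 (0.91 ± 0.64) and Prss16 (0.69 ± 0.35), and Vmn1r217 (-0.44 ± 0.49) was lowest. Their median was -0.05, against 0.44 for the histone genes they stand among. Most of the 36 carry Vmn1r symbols, and the median CpG content of all 36 was 0.56 per 100 bases, against 1.63 for the members. Those with other symbols ran from -0.05 (Slc17a3) to 1.06 (Hfe).

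Member probes stood above background on most arrays. Every one of the 291 window probes was well above background in both channels of WT. In Dnmt1-KO 256 were in input (88.0%, against 86.9% of all probes) and 272 in precipitated DNA (93.5%, against 84.5%). None was saturated, and none shared a run of 30 bases with another probe of the arrays. Probes were compared only with probes and not with the genome, so hybridisation to the near-identical coding regions of other family members was not tested. Among markers of ES cells, Sox2 (0.75 ± 0.37), Pou5f1 (0.74 ± 0.41) and Zfp42 (0.32 ± 0.30) were not bound in WT. Among 6 fibroblast genes, Vim (1.27 ± 0.30), Twist2 (1.19 ± 0.33) and Pdgfra (1.06 ± 0.52) were bound and Col1a1 (0.28 ± 0.27) was lowest. These are Rybp levels at promoters and show no cell type.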

How the data were processed

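Rybp ChIP-chip was analysed in WT, Eed-KO and Dnmt1-KO ES cells, 2 array designs each. The spot values are deposited intensities (processed signals, background-subtracted and dye-normalised by Agilent Feature Extraction, per the file headers: version 9.5.3.1 for WT and Eed-KO, 10.1.1.1 for Dnmt1-KO). The authors' deposited value table is in log10 of the Cy5 to Cy3 ratio. It differs from the scanner log ratios by 1 constant per array, so its scale and direction are known, and the origin of the constants is not. Its medians were -0.025, -0.0317 and -0.121 on array 1 and -0.027, -0.0316 and -0.114 on array 2 (WT, Eed-KO, Dnmt1-KO).

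Levels were log2 of processed red (Cy5, precipitated) over green (Cy3, input) signal, centred on each array's median, without 333 of 474380 probes flagged as outlier spots. Genes came from the Dnmt1-KO annotation, and genes with 1 window count once. Windows were the 6-probe runs of highest mean over the 3 genotypes, so a gene with a high level anywhere nearby gets a high window. Window calling was tested on simulated data with the same noise in all 3 genotypes, smaller than the spread of the Dnmt1-KO arrays. Whole windows were raised well above the bound level there, so the test does not cover calls near that level or in Dnmt1-KO. Spread was set by the median absolute deviation, GC trends by lowess (span 0.3, statsmodels 0.14.6), and normexp by limma 3.58.1 with an offset of 50. Calls are fixed rules of size.

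Members and lists were chosen with earlier results of these data known. The text names the testis genes, members bound in WT or Eed-KO, the 5 highest and 3 lowest per genotype, the 3 highest and lowest differences per knockout, the highest of each class, and of each other list the 3 highest, those bound in WT and the lowest. Further genes were chosen after their values were seen (H4c8, H3c3, H3c14 and H2bc18 among them). The motif searches and the comparison of levels before and after the start were added after seeing the data. No paired analysis applies, as labels give no replicates.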

Additional observations from a re-analysis of the deposited data

How the results depend on the processing

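No paired analysis was possible because each genotype has 1 array per promoter. Apart from the values named here, the counts of bound, higher and lower members stayed within 1.5 times the reported ones and the medians of levels and differences within probe error. Of 254 readings of the 4 bound members, of members below WT and of levels after the start, 188 did so. They include a setting without probes of repeated sequence. The member windows held none of those probes, so its readings could hardly differ. Of the 254, 15 changed sign, 8 of them from a value larger than probe error. Among the other 7, the Eed-KO difference at H2bc1 went from 0.02 to -0.23 with 1 spread. Unlike in the report, windows were chosen anew under each setting. Members bound in WT (4), Eed-KO (2) and Dnmt1-KO (22) numbered 16, 11 and 38 at a bound level of 1.5-fold (20.6%, 18.7% and 65.5% of all promoters), 0, 0 and 3 over all probes of the gene (0.0967%, 0.26% and 3.04%), and 9, 5 and 7 with the GC trend removed and 1 spread (11.1%, 8.84% and 9.13%). At 3-fold they were 2 in WT and 6 in Dnmt1-KO (0.276% and 20.7%), with normexp 2 and 14 (2.5% and 45.8%), and with 1 spread 9 and 4 (13.5% and 16.5%). The authors' value table gave 11 in Dnmt1-KO (28.1%), and runs of 4 probes 7 in WT (7.37%). Members higher in Dnmt1-KO (4) were 2 with normexp, 1 with the value table or all probes, 0 with either spread setting, 10 with runs of 4, 2 with windows picked from WT and Eed-KO and 8 near the start. With 1 spread 1 was lower. The median level in WT (0.44) was 0.61 with 1 spread, 0.67 with GC and spread and 0.15 over all probes. In Eed-KO (0.35) it was 0.061 over all probes. In Dnmt1-KO (0.87) it was 0.48 with the value table or with 1 spread, 0.55 with GC and spread, 1.15 with runs of 4 and 0.28 over all probes. The median Eed-KO difference (-0.17) was -0.31 with GC and spread, and it stayed below 0 in every setting. The median Dnmt1-KO difference (0.47) was 0.17 with the value table, 0.21 with windows picked from WT and Eed-KO and 0.11 over all probes, and turned to -0.18 with 1 spread and -0.13 with GC and spread. Those 2 settings also turned the Dnmt1-KO difference at H2bc1 (-1.04 and -0.99), H2ac1 (-0.92 and -0.89) and H2bc14 (-0.36 and -0.29). By construction both settings shrink the levels of the wider Dnmt1-KO arrays and stretch those of the WT arrays. Near the start, H2ac10 turned to -0.13 in WT and to 0.40 in its Eed-KO difference, with 1 WT probe at -3.65. Without that probe, a setting chosen after seeing the data, its levels were 0.45 in WT and 0.33 in Eed-KO. For the other settings the cause was not tested.

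Precision is limited by 1 array per promoter and genotype: no value has a replicate, and SD and SE cover probe scatter. The Dnmt1-KO arrays differ in scanner and extraction version, so differences from WT there cannot be told apart from those.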
